A study of Homo sapiens with 8 samples.

Results

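The comparison described here set HS578T cells that received an HSF2 plasmid (HSF2oe) against HS578T cells that received a GFP plasmid (Mock), in cells that got no TGF-β. It compares 4 of the 8 libraries of the series, 2 HSF2oe control and 2 Mock control libraries, chosen by their titles. The gene filter, the scaling and the spread between replicates were taken from all 8. HS578T is an established human breast carcinoma line. Every group was transfected with 25 µg of plasmid DNA, moved to assay medium 24 h later and collected after a further 24 h. Mock cells therefore also went through transfection and carried a plasmid, and the 4 TGF-β libraries differ in that the medium held 10 ng/ml TGF-β1. The labels' treatment field contradicts the titles for some samples, so the titles decided the groups. The 2 libraries of each group are described as biological replicates, and they are named here by group and replicate number, such as HSF2oe control 1.

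HSF2 is a transcription factor of the heat shock factor family, which binds heat shock elements, repeats of the 5-base block nGAAn in alternating orientation. HSF1, its best-studied relative, drives chaperone genes after heat or other protein-damaging stress, and both factors can form mixed trimers on the same elements. HSF2 is otherwise known from development and germ cells, and its protein is short-lived. In a transient overexpression, the measured RNA comes from a population in which plasmid-bearing and plasmid-free cells are mixed, so a level is an average over both.

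The total gene count was 25241347 and 34336107 in Mock control 1 and 2, and 28012966 and 29112540 in HSF2oe control 1 and 2. A count of 0 in these libraries allows a level of up to 0.0851 to 0.112 CPM (counts scaled to library size), by counting error alone. The mitochondrially encoded share of counts was 3.53% and 3.64% in Mock control and 4.64% and 3.66% in HSF2oe control, highest in HSF2oe control 1. The source is labelled epithelial, yet CDH1, the adhesion molecule of epithelial cells, lay between 0.262 and 0.539 CPM in the 4 libraries. Of 23 listed luminal breast genes 15 were under 1 CPM in all 4, and RAB25, AGR2, CLDN3, PGR and TFF1 were at 0. The summed level of the listed basal and mesenchymal genes was 72300 and 83500 CPM in Mock control and 64300 and 62800 CPM in HSF2oe control. Listed blood and endothelial genes summed to 11.4 to 15.1 CPM. These are bulk RNA data, so fewer cells of a type and less RNA per cell cannot be told apart.

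5 promoters show which sequence letters stand upstream of genes that the results turn on. They are the 250 bases before the RefSeq start site on GRCh38.p14, 5′ to 3′ on the gene's strand, with the matched letters in capitals. HSPA6 is shown for its heat shock element, CXCL8, TNFAIP3 and IL6 for kappa-B sites, and CHAC1 for a C/EBP-ATF site. In order they span chr1:161524290-161524539, chr4:73740319-73740568, chr6:137867009-137867258, chr7:22726950-22727199 and chr15:40953221-40953470, all on the plus strand.
HSPA6: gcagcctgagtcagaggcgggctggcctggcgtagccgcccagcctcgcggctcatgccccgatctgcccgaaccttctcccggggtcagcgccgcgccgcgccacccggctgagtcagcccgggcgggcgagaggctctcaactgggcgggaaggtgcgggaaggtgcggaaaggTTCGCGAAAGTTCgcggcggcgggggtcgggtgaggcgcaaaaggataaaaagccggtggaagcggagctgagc
CXCL8: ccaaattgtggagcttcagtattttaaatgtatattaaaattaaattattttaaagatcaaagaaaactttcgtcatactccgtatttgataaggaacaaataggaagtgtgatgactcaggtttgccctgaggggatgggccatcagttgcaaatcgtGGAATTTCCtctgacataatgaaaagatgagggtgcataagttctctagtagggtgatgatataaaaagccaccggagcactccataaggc
TNFAIP3: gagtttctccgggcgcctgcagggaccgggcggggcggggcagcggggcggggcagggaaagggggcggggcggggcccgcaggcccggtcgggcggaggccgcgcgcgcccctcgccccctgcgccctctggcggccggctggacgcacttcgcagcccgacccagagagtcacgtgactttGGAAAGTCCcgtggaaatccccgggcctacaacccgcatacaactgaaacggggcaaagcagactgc
IL6: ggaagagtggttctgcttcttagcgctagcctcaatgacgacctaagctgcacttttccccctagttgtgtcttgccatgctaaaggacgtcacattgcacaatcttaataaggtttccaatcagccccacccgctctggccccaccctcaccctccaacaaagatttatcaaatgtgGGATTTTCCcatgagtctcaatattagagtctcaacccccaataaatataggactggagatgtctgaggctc
CHAC1: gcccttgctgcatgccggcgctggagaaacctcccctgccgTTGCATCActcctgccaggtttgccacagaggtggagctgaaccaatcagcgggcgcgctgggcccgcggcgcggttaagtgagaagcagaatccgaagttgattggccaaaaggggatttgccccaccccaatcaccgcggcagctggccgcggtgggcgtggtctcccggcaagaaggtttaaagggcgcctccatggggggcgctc

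The element of HSPA6 began 74 bases before the start, that of CXCL8 91, that of TNFAIP3 67, that of IL6 72 and that of CHAC1 209. Each search read both strands of the 300-base RefSeq windows that run from 250 bases before to 50 bases after a start. A RefSeq window was matched to 11105 of the 16008 genes tested. The kappa-B letters GGANTTTCC stood in 1.49% of these windows, in 3.6% of the windows of genes that rose and in 0.898% of those of genes that fell. With a further G required before these letters, the shares were 0.522%, 1.54% and 0.112%. The AP-1 letters TGANTCA stood in 4.89% of all tested genes' windows, in 8.05% for genes that rose and in 4.94% for genes that fell. The C/EBP-ATF letters TGATGNAA stood in 1.77% of all tested genes' windows, in 1.71% for genes that rose and in 2.81% for genes that fell. The heat shock element, searched as the blocks GAA, TTC and GAA with 2 free bases between neighbours, stood in 0.324% of all tested genes' windows. It was in 3 of 584 windows of genes that rose (0.514%: HSPA6, GAS5 and MANCR) and in 2 of 891 windows of genes that fell (0.224%). Among heat shock proteins and cochaperones it also stood in the windows of HSPA8, CHORDC1, DNAJA1 and DNAJB6, which did not pass the test. A match describes letters in a window and not a bound site.

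HSF2 (ENSG00000025156.13, chr6:122399551-122433119, GRCh38) stood at 8.36 and 6.44 CPM in the Mock control libraries and at 937 and 616 CPM in the HSF2oe control libraries. It thus held 0.104% and 0.0682% of all counts in HSF2oe control, and HSF2oe control 1 carried more of it than HSF2oe control 2. Its log2 fold change was 6.72 ± 0.27 (SE, n = 2 per group, adjusted p = 3.25e-08). The counts pool plasmid and chromosomal transcripts. HSF1 measured 186 and 176 CPM in Mock control and 184 and 184 CPM in HSF2oe control, a log2 fold change of 0.03 ± 0.09 that did not pass the test. Of 15 tested heat shock factors, binding partners and degradation factors, HSF2 itself was the one called member.

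Across 16008 genes, 1937 (12.1%) differed between HSF2oe control and Mock control at an adjusted p below 0.05 in edgeR's quasi-likelihood test, 781 higher (4.88%) and 1156 lower (7.22%). The median size of a called change was 0.62 on the log2 scale, and 444 called genes changed by at least 1 log2 unit, 175 up and 269 down. Protein-coding genes made up 1825 of the calls. Of 2077 long noncoding RNAs tested, 53 rose and 36 fell. HSF2oe control 1 lay farther from the Mock mean than HSF2oe control 2 in 1480 of the 1937 called genes (76.4%), against 60.6% of all genes tested. The same library had the higher HSF2 level and the higher mitochondrial share (4.64% against 3.66%), and the part of either was not tested. Fewer genes passed when any 1 of the 4 untreated libraries was left out, most so without HSF2oe control 1 or Mock control 2. In these fits 0 of the 1937 calls changed sign. A fit with 1 library in a group also has less power, and what the lost calls owe to a single library was not tested. Scaling by library totals alone moved the median of all genes by 0.09 on the log2 scale and turned the split to 1432 higher and 807 lower. The balance of rises and falls is thus relative to TMM scaling. Under library totals 0 of the 1937 calls changed sign, and 1586 passed again in the same direction. Of the calls, 64.0% were higher under that scaling and 40.3% with TMM.

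**Figure D1:**
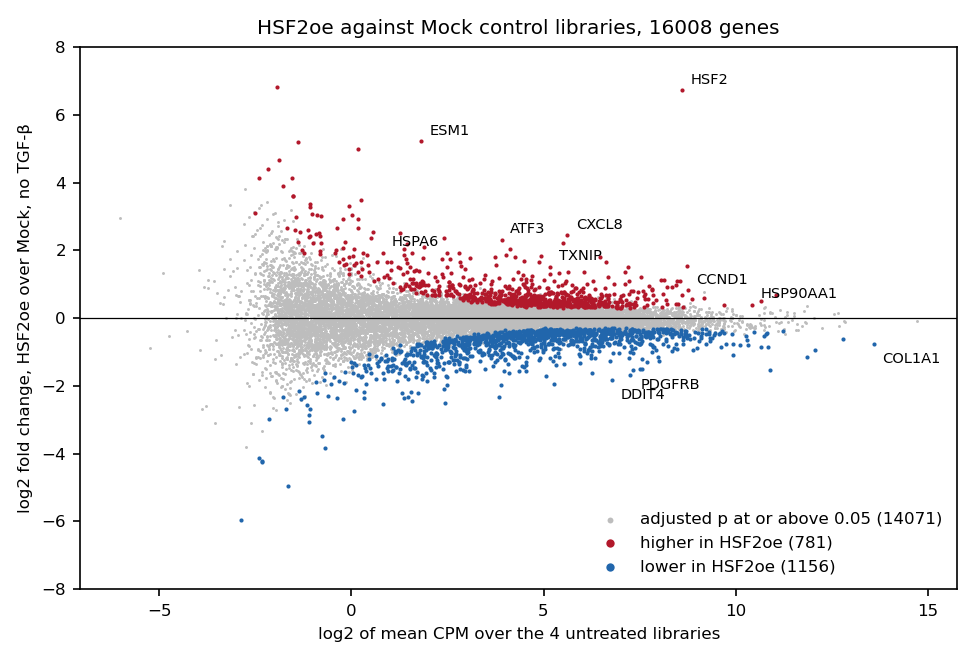
Log2 fold change of HSF2oe over Mock without TGF-β (vertical axis) against the log2 of mean CPM over the 4 untreated libraries (horizontal axis), 1 point per gene; red genes were higher, blue genes lower and grey genes not past an adjusted p of 0.05, and genes at 0 in all 4 are not drawn. HSF2 stands at 6.72, ESM1 at 5.23 and CXCL8 at 2.45 on the upper side, while COL1A1 at -0.77 and DDIT4 at -1.83 are on the lower side.

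Of 85 tested heat shock proteins and cochaperones 9 were called (10.6%), against 12.1% of all genes. HSPA6, a strictly stress-inducible HSP70, was at 0.862 and 0.624 CPM in Mock control and at 2.41 and 3.19 CPM in HSF2oe control. Both HSF2oe libraries were above both Mock libraries, with a log2 fold change of 1.93 ± 0.31 (adjusted p = 0.00222) that passed the test under every alternative tried. HSPA6 is the gene whose heat shock element is printed above. HSPA1A, the main stress-inducible HSP70, measured 95.4 and 100.3 CPM in Mock control and 109 and 121.9 CPM in HSF2oe control. That is a log2 difference of 0.24 ± 0.10 with an adjusted p of 0.157, and its near-identical copy HSPA1B had 0.35 ± 0.13 with an adjusted p of 0.100, so reads may be split between them. DNAJB1, the HSP40 that works with HSPA1A, had -0.05 ± 0.10, and the constitutive HSPA8 had 0.15 ± 0.12.

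Within the HSP70 and HSP110 list, 3 of 16 tested members rose (HSPA6, HSPH1 and HSPA4L) and 2 fell, against 4.88% and 7.22% of all genes. The members that fell were HSPA5, the HSP70 of the endoplasmic reticulum (ER), and HYOU1, its HSP110-type partner. HSPH1, the cytosolic HSP110 that recharges HSP70 with nucleotide, measured 128 and 153 CPM in Mock control and 188 and 184 CPM in HSF2oe control (0.40 ± 0.10). HSPA5 measured 1967 and 2147 CPM in Mock control and 1638 and 1360 CPM in HSF2oe control (-0.46 ± 0.14). These calls were small, and of the alternatives tried, HSPH1 and HYOU1 lost theirs under 3, HSPA5 under 9 and HSPA4L under 10, other processing settings included for HSPA5 and HSPA4L. For example, without HSF2oe control 1, the adjusted p was 0.151 for HSPH1 and 0.0715 for HSPA5, and without HSF2oe control 2 it was 0.0843 for HSPA4L and 0.165 for HYOU1. Leaving out 1 of the 4 libraries left 1 or 2 rises and 0 or 1 falls.

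Counts of calls in this paragraph stand against 4.88% higher and 7.22% lower of all genes. Of 16 HSP90 genes and cochaperones, HSP90AA1, the inducible cytosolic HSP90, was the one that passed. It measured 1136 and 1234 CPM in Mock control and 1498 and 1619 CPM in HSF2oe control (0.40 ± 0.10). Its call was lost without any 1 of the 4 libraries (adjusted p 0.0827 to 0.143). Among 31 DNAJ cochaperones DNAJB4 rose, from 22.3 and 24.1 CPM to 37.1 and 35.8 CPM (0.65 ± 0.12), and its adjusted p was 0.0545 without HSF2oe control 1, where 0 of the 31 passed. None of the 10 chaperonin genes passed edgeR's test, although all 10 log2 values were positive and 8 had both HSF2oe libraries above both Mock libraries, a pattern that 28.5% of all genes showed. HSPD1, the mitochondrial chaperonin, was closest, with 0.30 ± 0.09 and an adjusted p of 0.0521. DESeq2 called 2 of these 10 higher. Of 12 tested small heat shock proteins and BAG cochaperones 2 fell: HSPB7 from 13.6 and 15.7 to 9.18 and 8.28 CPM, and CRYAB from 16.6 and 17.4 to 8.83 and 13 CPM. Neither of these calls held without Mock control 2 (adjusted p 0.062 and 0.125). The proteasome list gave 1 rise and 2 falls among 34 tested, the falls being PSMB8 and PSMB9 of the immunoproteasome. The riser PSMD2 lost its call without any 1 of the 4 libraries. The faller PSMB9 lost its call without Mock control 1, HSF2oe control 1 or HSF2oe control 2.

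**Figure D2:**
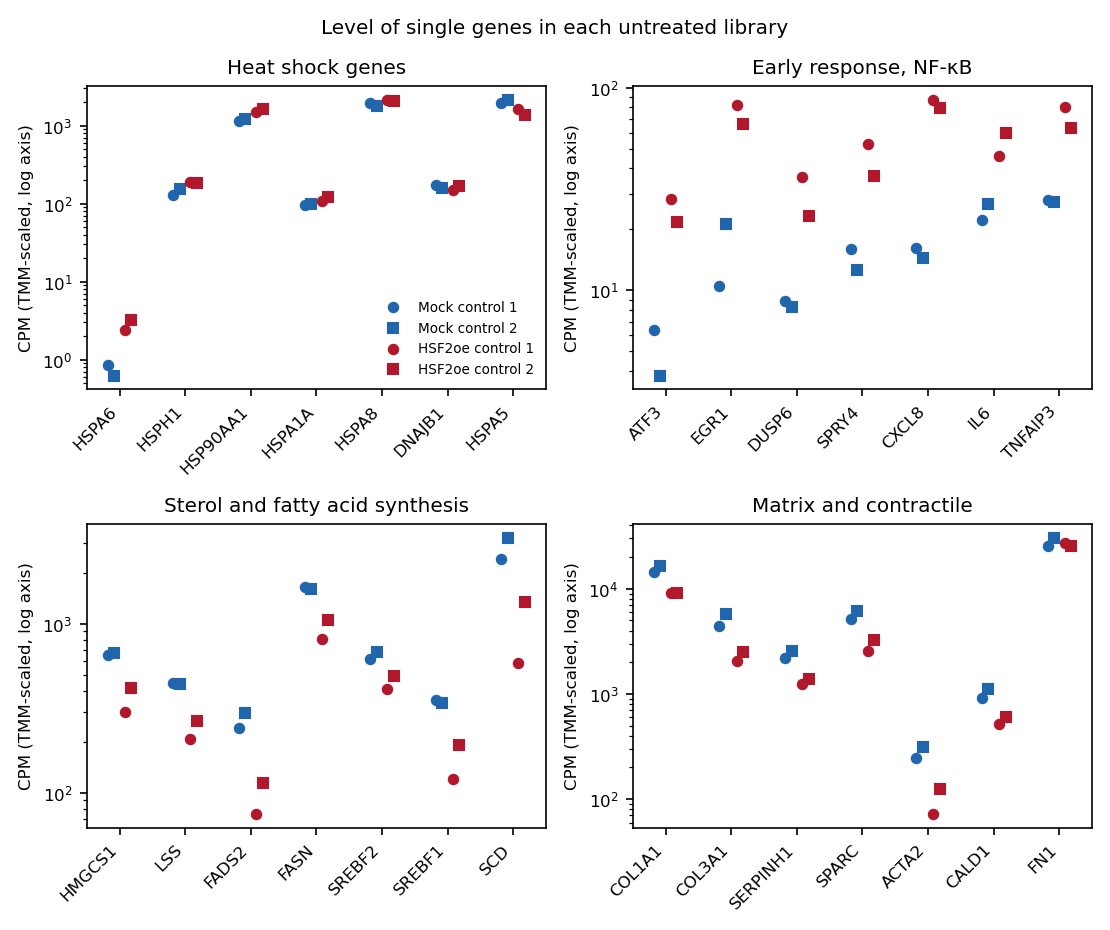
CPM (log axis) of single genes in the 4 untreated libraries, blue for Mock and red for HSF2oe, circles for replicate 1 and squares for replicate 2. The inducible HSPA6 and the early response and NF-κB genes stand higher in both HSF2oe libraries, the sterol, fatty acid and matrix genes lower, while FN1 (log2 difference -0.10) and HSPA8 overlap or nearly overlap between the groups.

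Many immediate early genes and feedback genes of the MAP kinase pathway rose. Immediate early genes encode transcription factors such as the AP-1 and EGR proteins that growth factor signals induce within minutes, and DUSP and SPRY proteins damp the same pathway. Of 34 tested members of this list (37 listed), 20 rose and 2 fell, against 4.88% and 7.22% of all genes, and the list's median log2 difference was 0.71 against about 0 for all genes. The fallers were JUND and SPRY1. Without HSF2oe control 1, 10 rose and 0 fell, and without Mock control 2, 12 rose and 1 fell.

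ATF3, a stress-induced partner of AP-1 proteins, measured 6.37 and 3.80 CPM in Mock control and 28.2 and 21.9 CPM in HSF2oe control (2.32 ± 0.25, adjusted p = 0.000334). EGR1, a zinc finger factor, went from 10.5 and 21.2 CPM to 82.4 and 66.4 CPM (2.21 ± 0.30). Mock control 2 was the higher Mock library in EGR1, and both HSF2oe libraries lay above it. MAFF, a small MAF factor, rose from 40.4 and 34.0 to 102 and 89.1 CPM (1.36 ± 0.15). Among AP-1 subunits FOSL1 rose by 1.13 ± 0.19, and FOS and JUN by 1.65 ± 0.33 and 0.92 ± 0.17, while JUND fell by 0.74 ± 0.15. Of these 4, the calls of FOS, JUN and JUND were lost without HSF2oe control 1 (adjusted p 0.0839, 0.0655 and 0.0965).

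Of the feedback inhibitors, SPRY4 was at 15.9 and 12.6 CPM in Mock control and at 52.8 and 36.5 CPM in HSF2oe control (1.65 ± 0.21). DUSP6, the phosphatase of ERK kinases, was at 8.92 and 8.31 CPM and then at 36.5 and 23.4 CPM (1.80 ± 0.25), although 28.6% of its exonic bases are shared with another annotated gene. DUSP5 rose by 1.16 ± 0.20. DUSP4 rose from 8.77 and 4.96 to 37.6 and 18.6 CPM (2.05 ± 0.38), with an adjusted p of 0.0686 without HSF2oe control 1. In SPRY4, DUSP4 and DUSP6, HSF2oe control 1 was the higher of the pair. PPP1R15A and GADD45A, induced by several kinds of stress, rose by 1.08 ± 0.14 and 1.21 ± 0.11. TMEM158, a surface protein known to be induced by RAS, rose from 79.8 and 76.7 to 224 and 177 CPM, and FGF5, a secreted growth factor, from 26.0 and 22.1 to 63.1 and 57.9 CPM.

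Of 37 tested inflammatory cytokines, chemokines and NF-κB pathway genes (49 listed), 16 rose and 3 fell, against 4.88% and 7.22% of all genes, and the median log2 difference was 0.46. Without HSF2oe control 1, and likewise without Mock control 2, 10 rose and 1 fell. CXCL8, the neutrophil chemokine interleukin 8, had the smallest p of the list: 16.2 and 14.4 CPM in Mock control against 87.2 and 79.3 CPM in HSF2oe control, a log2 fold change of 2.45 ± 0.14 (adjusted p = 1.59e-06). IL1B measured 3.04 and 2.44 CPM and then 8.86 and 9.27 CPM (1.74 ± 0.18), and IL1A rose by 3.05 ± 0.45 from under 1 CPM. IL6 went from 22.2 and 26.8 to 45.8 and 59.6 CPM (1.10 ± 0.13); 21% of its exonic bases are shared with an antisense gene, and reads were counted without regard to strand.

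Several intracellular regulators also passed as higher, while NFKB1 (0.21 ± 0.10), NFKBIA (0.26 ± 0.14) and REL (0.27 ± 0.18) did not pass. TNFAIP3, the deubiquitinase A20 that ends NF-κB signalling, rose from 28.0 and 27.4 to 80.3 and 63.2 CPM (1.37 ± 0.16). BIRC3, a ubiquitin ligase at TNF receptors, rose from 2.32 and 1.16 to 9.86 and 7.78 CPM (2.37 ± 0.32), NFKBIZ by 0.90 ± 0.15 and RELB by 0.81 ± 0.14. CXCL3 rose by 2.19 ± 0.28, but CXCL2 and CXCL3 are close copies and their reads can be split. The fallers were CSF1, IL1R1 and ACKR3, a scavenging chemokine receptor that went from 2.85 and 6.33 to 0.610 and 1.24 CPM. The kappa-B letters shown above for CXCL8, TNFAIP3 and IL6 stood in the windows of 6 of the 13 risers of this list that had a RefSeq window (CXCL2, CXCL3 and NFKBIZ were the other 3), or 5 of 13 with the further G. Over the whole list they stood in 11 of 30 windows (36.7%), or 9 of 30 with the further G, among them ICAM1, IL32, NFKB1, NFKBIA and REL, which did not pass the test. IL11, of the IL-6 family, rose by 0.76 ± 0.10.

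Interferon-stimulated genes moved both ways. Of 49 log2 values 37 were positive, with a median of 0.30. Of the 49 tested genes 12 rose and 5 fell, against 4.88% and 7.22% of all genes. The counts were 3 and 0 without HSF2oe control 1, 6 and 0 without Mock control 2, 5 and 4 without Mock control 1, and 9 and 3 without HSF2oe control 2. OAS1, which senses double-stranded RNA, had 2 and 10 counts in Mock control (0.0749 and 0.284 CPM) and 2.34 and 2.02 CPM in HSF2oe control (3.48 ± 0.52). IFI44 rose from 1.01 and 1.22 to 4.30 and 3.81 CPM, and MX1 from 0.937 and 1.53 to 5.81 and 3.63 CPM, the latter with an adjusted p of 0.0572 without HSF2oe control 1. The OAS1 relatives OAS2 and OAS3 rose by 1.40 ± 0.33 and 1.33 ± 0.33. GBP1, GBP2, IFI35, IFITM2 and IFITM3 fell, GBP1 from 33.4 and 40.1 to 23.2 and 24.2 CPM. Of 19 tested antigen presentation genes 5 fell and 1 rose, against 7.22% and 4.88% of all genes. PSMB8 measured 30.4 and 30.5 CPM in Mock control and 17.1 and 18.7 CPM in HSF2oe control (-0.77 ± 0.12), and the riser was CD274, the ligand of PD-1. The falls numbered 1 without HSF2oe control 1, 2 without Mock control 2 and 2 without HSF2oe control 2, and CD274 had adjusted p-values of 0.0729, 0.136 and 0.289 without Mock control 1, Mock control 2 and HSF2oe control 1. STING1, the adaptor of cytosolic DNA sensing, was the 1 of 11 tested genes of that list to pass (-0.45 ± 0.09; adjusted p 0.0897 without HSF2oe control 1).

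**Figure D3:**
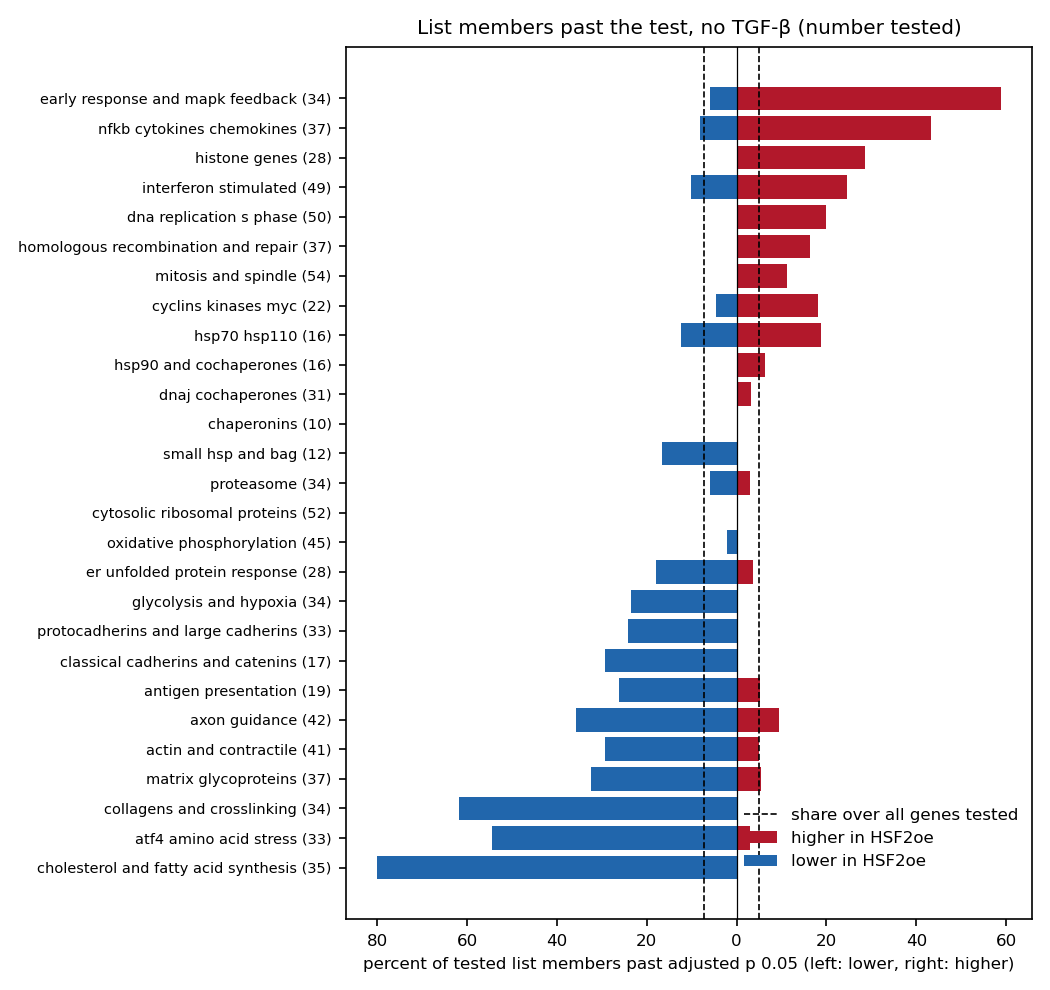
Percent of the tested members that were higher (red, right) or lower (blue, left) in HSF2oe control at an adjusted p below 0.05, for a selection of the 48 gene lists. Lists not drawn include mixed ones, such as integrins and laminins (4 higher, 7 lower) and matrix proteases (7 higher, 9 lower). The number tested is in brackets and the dashed lines mark the shares over all genes, 4.88% higher and 7.22% lower. Early response and NF-κB lists extend farthest to the right, and cholesterol and fatty acid synthesis (28 of 35), collagens (21 of 34) and ATF4 targets (18 of 33) farthest to the left.

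Most genes of cholesterol and fatty acid synthesis fell. Cells make sterols from acetyl-CoA, and SREBP transcription factors raise the genes of this pathway and of fatty acid synthesis when sterols are low. Of 35 tested genes (36 listed), 28 fell and 0 rose, against 7.22% and 4.88% of all genes. Of the 35 log2 values 34 were negative, with a median of -0.58. All but 7 passed. The count of falls was 13 without Mock control 2, 8 without HSF2oe control 1, 21 without Mock control 1 and 29 without HSF2oe control 2.

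In the sterol branch, HMGCS1 measured 654 and 668 CPM in Mock control and 299 and 414 CPM in HSF2oe control (-0.89 ± 0.15), where 37.7% of exonic bases are shared with another gene. LSS, which closes the sterol ring, went from 442 and 439 to 209 and 265 CPM (-0.89 ± 0.13, adjusted p = 0.00126), and TM7SF2, a sterol reductase, from 9.07 and 7.15 to 3.18 and 3.44 CPM. In each of HMGCS1, LSS, FADS2, SREBF1 and SCD, HSF2oe control 1 was the lower of the pair.

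In the fatty acid branch, FADS2, the first desaturase of polyunsaturated fatty acids, went from 240 and 298 to 74.7 and 113 CPM (-1.52 ± 0.18, adjusted p = 0.000496). SCD, the desaturase that makes monounsaturated fatty acids, went from 2404 and 3214 to 583 and 1338 CPM (-1.55 ± 0.33), and FASN, the fatty acid synthase, fell by 0.80 ± 0.14. Their adjusted p-values without HSF2oe control 1 were 0.0732 and 0.0618. Among the regulators, SREBF1 fell from 355 and 337 to 120 and 190.1 CPM (-1.16 ± 0.18) and SREBF2 by 0.52 ± 0.12, the latter with an adjusted p of 0.164 without HSF2oe control 1. FABP3, a fatty acid binding protein, fell from 19.8 and 27.8 to 2.99 and 6.54 CPM. VLDLR, a lipoprotein receptor that is counted in the ATF4 list below, fell from 30.1 and 36.6 to 12.4 and 14.6 CPM.

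Many genes of the ATF4 amino acid response fell. ATF4 is the factor whose translation rises when amino acids run short, and its targets make and import amino acids and charge tRNAs. Of 33 tested genes 18 fell and 1 rose, against 7.22% and 4.88% of all genes, with a median of -0.47. Without HSF2oe control 1 the count was 7 lower and 1 higher, and without Mock control 2 it was 8 and 1. ATF4 mRNA itself measured 371 and 354 CPM in Mock control and 302 and 332 CPM in HSF2oe control (-0.20 ± 0.11, adjusted p = 0.261). TRIB3, a pseudokinase, went from 91.8 and 97.5 to 41.3 and 51.4 CPM (-1.03 ± 0.13), and DDIT4, an inhibitor of mTORC1, from 169 and 177 to 37.2 and 59.8 CPM (-1.83 ± 0.26). PHGDH, the entry enzyme of serine synthesis, fell by 0.77 ± 0.12, and CHAC1, which degrades glutathione, from 35.1 and 32.5 to 16.5 and 19.8 CPM (-0.90 ± 0.15). The 1 riser was PPP1R15A, which restores translation by dephosphorylating eIF2α, from 239.7 and 220.3 to 523 and 448.5 CPM. The C/EBP-ATF letters of the CHAC1 promoter stood in 5 of 28 windows of this list and in 2 of the 15 windows of its fallers, AARS1 and CHAC1. INHBE, an activin subunit, fell from 52.6 and 70.1 to 11.3 and 20.3 CPM (-1.96 ± 0.29).

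Related lists gave lower shares of calls than the ATF4 list (57.6%). The share was 21.4% for the ER unfolded protein response and 23.5% for glycolysis and hypoxia, against 12.1% of all genes. It was 2.22% for nuclear-encoded oxidative phosphorylation. Of all genes 7.22% fell and 4.88% rose. Of 28 tested genes of the ER unfolded protein response 5 fell and 1 rose (ERN1), and 25 of 28 log2 values were negative. Without Mock control 2 both counts were 0, and without HSF2oe control 1 they were 1 and 0. Of 34 glycolysis and hypoxia genes 8 fell and 0 rose, among them NDRG1, BNIP3, EPAS1 and PDK1, and 0 passed without Mock control 2 or without HSF2oe control 1, with 5 falls without Mock control 1. TXNIP, an inhibitor of thioredoxin and glucose uptake, rose from 17.5 and 19.8 to 54.0 and 53.4 CPM (1.52 ± 0.11, adjusted p = 1.41e-05). MT2A, a metallothionein, rose from 281 and 195 to 546 and 476 CPM, and AKR1C3, an NRF2 target, fell from 12.2 and 12.1 to 6.39 and 4.84 CPM. Of 45 nuclear-encoded oxidative phosphorylation genes 1 passed (COX5B, -0.32 ± 0.10, lost without any 1 of the 4 libraries), and 0 of 52 ribosomal protein genes and 0 of 13 mitochondrially encoded genes did in edgeR's test.

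Most collagens and enzymes that fold and crosslink them fell. Of 34 tested genes (37 listed) 21 fell and 0 rose, against 7.22% and 4.88% of all genes, with a median of -0.54. In 28, both HSF2oe libraries lay below both Mock libraries, which 29.0% of all genes showed. Without Mock control 2 there were 9 falls, and without HSF2oe control 1 there were 12. COL1A1, the main chain of collagen I, measured 14550 and 16540 CPM in Mock control and 9042 and 9152 CPM in HSF2oe control (-0.77 ± 0.12), and COL3A1 4374 and 5803 against 2075 and 2508 CPM (-1.15 ± 0.17). COL5A1 fell by 0.86 ± 0.13 and COL15A1 by 1.37 ± 0.21. COL6A6, a collagen VI chain outside the list, fell from 22.6 and 24.1 to 7.90 and 7.81 CPM (-1.57 ± 0.14).

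SERPINH1, the collagen chaperone HSP47, went from 2208 and 2540 to 1256 and 1393 CPM (-0.84 ± 0.12, adjusted p = 0.000996). SERPINH1 and SYNC were the 2 falling genes whose RefSeq windows held the heat shock element letters. LOXL1 and LOXL3, lysyl oxidases, fell by 0.76 ± 0.12 and 0.85 ± 0.13. The counts of the next list stand against 7.22% lower and 4.88% higher of all genes. Of 37 matrix glycoproteins and proteoglycans 12 fell and 2 rose, and without HSF2oe control 1 or Mock control 2 the falls were 3. SPARC, a collagen-binding protein, went from 5099 and 6150 to 2548 and 3279 CPM, and EFEMP1, a fibulin, from 133 and 168 to 55.6 and 69.0 CPM (-1.27 ± 0.13). FN1, the most abundant matrix transcript at 2.71% to 3.11% of counts, did not pass (-0.10 ± 0.14).

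The risers of the matrix list were ESM1 and HAS2. ESM1, a secreted dermatan sulfate proteoglycan, was at 0.225 and 0.142 CPM in Mock control and at 10.2 and 3.57 CPM in HSF2oe control, with a log2 fold change of 5.23 ± 0.62 (adjusted p = 0.000463). Its Mock control counts were 6 and 5, so the fold rests on a base near 0, and HSF2oe control 1 was the higher library. HAS2, a hyaluronan synthase, rose from 78.5 and 73.9 to 262 and 175 CPM (1.52 ± 0.24). The integrin and laminin counts that follow stand against 4.88% higher and 7.22% lower of all genes. Among integrins and laminins 4 of 27 rose and 7 fell, with 1 and 3 without HSF2oe control 1, 1 and 2 without Mock control 2, and 5 and 3 without HSF2oe control 2. ITGA2, a collagen receptor subunit, rose from 39.9 and 39.1 to 186 and 90.8 CPM (1.81 ± 0.28, or 1.20 without HSF2oe control 1), while ITGA11, another collagen receptor subunit, fell from 726 and 858 to 508 and 482 CPM (-0.68 ± 0.12). LAMA4 fell by 1.28 ± 0.22, or by 0.83 without Mock control 2.

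Matrix proteases and their inhibitors moved both ways, with 7 of 40 higher and 9 lower. For this list and the actin list below, the shares over all genes were 4.88% higher and 7.22% lower. Urokinase and its receptor rose: PLAU from 175 and 177 to 310 and 259 CPM (0.69 ± 0.11; 31% of its exonic bases are shared with another gene) and PLAUR by 0.81 ± 0.14. ADAMTS12, ADAMTS14 and ADAM12 fell by 0.72 ± 0.10, 1.37 ± 0.23 and 0.69 ± 0.11. Without HSF2oe control 1, and likewise without Mock control 2, the list counted 3 higher and 4 lower. In the actin and contractile list 12 of 41 fell and 2 rose, but 1 fell and 1 rose without HSF2oe control 1, and 5 fell and 1 rose without Mock control 2. ACTA2, smooth muscle actin, went from 248 and 312 to 72.5 and 124 CPM (-1.51 ± 0.24), where 31% of exonic bases are shared with an antisense gene. RND3, an antagonist of RhoA signalling, rose from 164 and 161 to 296 and 282 CPM (0.83 ± 0.10).

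Some adhesion genes fell. The counts of this paragraph stand against 7.22% lower and 4.88% higher of all genes. Among cadherins and catenins 5 of 17 tested fell and 0 rose (CDH3, CDH6, CDH15, CDH18 and JUP), 14 of 17 log2 values were negative, and 0 passed without HSF2oe control 1 or without Mock control 2. Without Mock control 1, and without HSF2oe control 2, 3 fell. CDH2, N-cadherin, measured 555 and 584 CPM in Mock control and 499 and 463 CPM in HSF2oe control (-0.24 ± 0.11, adjusted p = 0.156). Among protocadherins and other large cadherins 8 of 33 fell and 0 rose, with 3 falls without HSF2oe control 1, 3 falls and 1 rise without Mock control 2, and 4 falls without HSF2oe control 2. PCDH18 went from 87.3 and 104 to 52.5 and 54.4 CPM (-0.84 ± 0.11), PCDH7 from 144 and 140 to 83.5 and 88.9 CPM (-0.72 ± 0.10), and FAT4 from 36.5 and 48.1 to 21.3 and 20.6 CPM. NCAM1 and L1CAM, adhesion molecules of the immunoglobulin family, fell by 1.38 ± 0.14 and 0.72 ± 0.09. Of 14 tested neural marker genes 5 fell, those 2 among them (3 without HSF2oe control 1 or without Mock control 2), while ELAVL4, STMN2 and DCX were at 0 in all 4 libraries.

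Among axon guidance genes, which also steer cell migration, 15 of 42 fell and 4 rose, with 8 and 0 without HSF2oe control 1 and 7 and 0 without Mock control 2. PLXND1, a semaphorin receptor, went from 186 and 216 to 95.9 and 105 CPM (-1.002 ± 0.10), UNC5B, a netrin receptor, from 51.1 and 64.3 to 22.1 and 22.0 CPM (-1.39 ± 0.16), and SLIT3, a ligand of ROBO receptors, from 24.3 and 22.8 to 10.7 and 11.8 CPM. The shares over all genes, for axon guidance and for the next list, were 7.22% lower and 4.88% higher. Of 37 tested growth factors and receptors 8 fell and 2 rose, with a median of -0.04. The falls and rises numbered 2 and 1 without HSF2oe control 1, 2 and 2 without Mock control 2, 5 and 2 without Mock control 1, and 5 and 3 without HSF2oe control 2. PDGFRB, a receptor of platelet-derived growth factor, went from 207 and 267 to 76.5 and 88.1 CPM (-1.53 ± 0.15, adjusted p = 0.000159). Of the Wnt antagonists SFRP2 and SFRP4 fell by 1.70 ± 0.24 and 2.09 ± 0.27, while SFRP1 rose from 7.08 and 9.19 to 16.5 and 16.6 CPM (1.02 ± 0.17). NOTCH3 went from 73.8 and 95.0 to 38.9 in both HSF2oe libraries. DCLK1, a microtubule-associated kinase, fell from 21.2 and 26.6 to 5.23 and 6.85 CPM (-1.98 ± 0.17). LRRC32, which holds latent TGF-β on the cell surface, fell from 63.8 and 69.5 to 24.4 and 27.3 CPM (-1.37 ± 0.12).

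Of 16 tested transcription factors of the epithelial-mesenchymal transition, SOX9 and FOXC2 rose and 0 fell. That is 12.5% called, against 12.1% of all genes, and 9 of the 16 log2 values were negative, with a median of -0.10. SOX9 went from 24.5 and 24.3 to 46.7 and 43.4 CPM (0.89 ± 0.13), and FOXC2 lost its call without HSF2oe control 1 (adjusted p = 0.104) and without Mock control 2 (adjusted p = 0.163). VIM, the mesenchymal intermediate filament, had 0.21 ± 0.11 and did not pass (24.3% of its exonic bases are shared with an antisense gene), and 3 of 16 tested keratin and desmosome genes (KRT14, KRT16 and KRT17) fell, with 1 fall without HSF2oe control 1 and 2 without Mock control 1 or HSF2oe control 2. KRT17 measured 188 and 167 CPM in Mock control and 108 and 116 CPM in HSF2oe control. Of the keratin and desmosome list 18.8% were called, all lower, against 7.22% lower of all genes. Of 9 tested luminal breast genes 1 rose and 0 fell, which is 11.1% called, against 12.1% of all genes. Of the 9 log2 values 7 were negative, with a median of -0.34. The riser was GATA3, a luminal factor, which went from 7.61 and 8.20 to 15.2 and 13.2 CPM (0.84 ± 0.14).

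Some growth and division genes rose, by small amounts. CCND1, cyclin D1, which drives cells from G1 towards S phase, went from 337 and 286 to 558 and 539 CPM (0.82 ± 0.10, adjusted p = 0.000646). MYC measured 124 and 109 CPM in Mock control and 167 and 172 CPM in HSF2oe control (0.54 ± 0.12; adjusted p 0.138 without Mock control 2), and MXD4, an antagonist of MYC, fell by 0.71 ± 0.10. Of 50 DNA replication genes 47 had positive log2 values, with a median of 0.31. Both HSF2oe libraries lay above both Mock libraries in 41 of them, against 28.5% of all genes. Past the test, 10 rose and 0 fell, against 4.88% and 7.22% of all genes. The count was 1 without HSF2oe control 1 or without Mock control 2, 4 without HSF2oe control 2, and 25 under library totals. CLSPN, a replication checkpoint mediator, passed under every alternative tried, from 40.8 and 40.6 to 63.3 and 61.9 CPM (0.62 ± 0.10), and PCNA, the sliding clamp, had 0.32 ± 0.10 with an adjusted p of 0.0541. Of 54 mitosis genes 6 rose and 0 fell, and of 37 recombination and repair genes 6 rose and 0 fell, and these counts were 1 and 0 without HSF2oe control 1 or without Mock control 2, and 2 and 3 without Mock control 1, while the mitosis count was 3 without HSF2oe control 2. The 6 mitosis rises were 11.1% of that list, against 4.88% of all genes higher and 12.1% called in either direction. Of the 54 log2 values of that list 49 were positive. NUF2, a kinetochore protein, rose from 35.8 and 39.95 to 53.9 and 55.7 CPM.

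Histone genes, whose main transcripts lack the poly(A) tail that this library kit selects, were measured at low levels. Of 28 tested (47 listed) 8 rose and 0 fell, with a median of 0.64, and 2 rose without HSF2oe control 1, without Mock control 2 or without Mock control 1. H2AC6 went from 6.97 and 6.95 to 20.8 and 20.03 CPM (1.55 ± 0.18), and H4C8 from 0.862 and 0.596 to 4.59 and 3.57 CPM (2.50 ± 0.35). The 8 histone rises were 28.6% of the histone genes tested, against 4.88% of all genes. Histone genes of one class are near-identical copies, so reads can be split among them. Other steady rises were NR1D1, a circadian nuclear receptor (14.7 and 12.3 to 51.9 and 43.6 CPM), SPHK1, sphingosine kinase (34.5 and 27.1 to 76.3 and 53.8 CPM), and PMAIP1, the BH3-only protein NOXA (9.22 and 8.31 to 21.7 and 17.8 CPM). PMAIP1 and GADD45A belong to a list of p53 targets and CDK inhibitors with a median of -0.17. There 3 of 32 tested rose and 5 fell, against 4.88% and 7.22% of all genes. In that list BBC3 (-0.76 ± 0.18) and SESN2 (-0.51 ± 0.11) fell, though neither call held under every alternative.

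The same plasmids were compared in the TGF-β-treated libraries, which share no library with the untreated ones though they share the fitted spread. There 3449 genes passed (21.5%), 1537 higher (9.6%) and 1912 lower (11.9%), and 1428 of the 1937 untreated calls passed in the same direction, which is 73.7% of the untreated calls and 41.4% of the TGF-β calls. By sign alone, 1907 of the 1937 pointed the same way. The log2 fold change of CXCL8 was 2.45 without and 2.32 with TGF-β, that of TXNIP 1.52 and 1.61, that of CCND1 0.82 and 0.82, that of FADS2 -1.52 and -1.50 and that of COL1A1 -0.77 and -0.88. DNA replication genes had 10 rises without and 43 with TGF-β, with medians of 0.31 and 0.82, and 38 of the 50 had an unadjusted p below 0.05 in the test of the difference, against 6.1% of all genes.

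In the test of the difference itself 0 genes passed after adjustment in edgeR's fit, with 977 at an unadjusted p below 0.05; DESeq2 called 23. CRISPLD2, a secreted protein, had -0.70 without and -1.43 with TGF-β, PLAU 0.69 and -0.05, CLSPN 0.62 and 1.26, PCDH7 -0.72 and -1.31, and PLCXD2 1.93 and 0.42. These 5 differences had unadjusted p-values under 0.05, but adjusted p-values of 0.268 to 0.431 in edgeR's quasi-likelihood test.

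**Figure D4:**
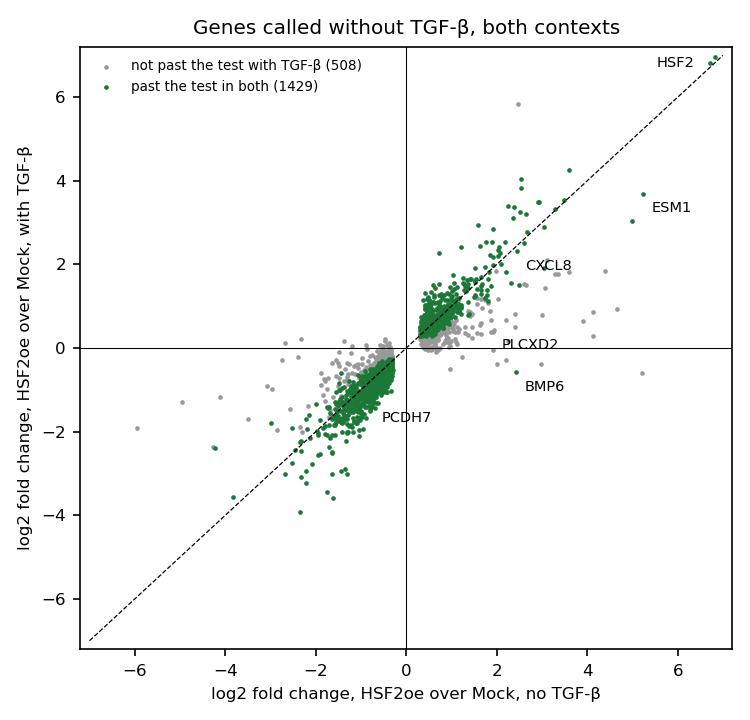
Log2 fold change of HSF2oe over Mock without TGF-β (horizontal axis) against that with TGF-β (vertical axis) for the 1937 genes called without TGF-β; green genes also passed with TGF-β and the dashed line marks equal values. In all, 1907 genes lie in the upper right or lower left quadrant, and BMP6, at 2.43 and -0.58, is the 1 green gene in the lower right quadrant.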

How the data were processed

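The deposited gene counts are raw paired-read counts, made by the authors with featureCounts 2.0.1 on GENCODE release 38 without a strand option, per the file headers; the kit in the labels marks strand. The submitters' processing notes list STAR 2.7.9a, GRCh38 and edgeR 3.34.1. A second deposited table holds log2 CPM of 13169 genes and served for 1 alternative. Counts of 60708 genes were filtered with filterByExpr by group (16008 kept), scaled by TMM and fitted with edgeR 4.0.16 (R 4.3.3) over all 8 libraries with a mean per group (biological coefficient of variation 9.91%). P-values are 2-sided, adjusted by Benjamini-Hochberg over the 16008 genes, and called below 0.05. Each standard error equals |log2 fold change| / √F. CPM are TMM-scaled.

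The comparison and the 48 gene lists were chosen with earlier results of these data known. Genes are named by rule: HSF2 and HSF1; among called genes whose log2 CPM averaged 1 or more and whose groups did not overlap, the 12 largest rises and falls and the 6 of each with the smallest p; and per list up to 4 called members with the smallest p. A further 42 family partners or genes were chosen for their role with their values known. Results on some genes are not reported here. Positions come from the count table, promoters from RefSeq; the kappa-B letters were shortened by 1 base after a first count. The script was tested on simulated data. The alternatives tried were other scaling, filters, thinned counts, a replicate block, fewer libraries, limma 3.58.1 on the log2 CPM and DESeq2 1.42.0.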

Additional observations from a re-analysis of the deposited data

Results flagged for a closer look

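BMP6, a bone morphogenetic protein, is given for the size of the difference between its effects without and with TGF-β. Both HSF2oe libraries lay above both Mock libraries without TGF-β and below them with TGF-β. Of the 1937 genes called without TGF-β, 5 had groups that stood apart in opposite directions in this way. BMP6 measured 0.1499 and 0.142 CPM (4 and 5 counts) in Mock control and 0.899 and 0.713 CPM in HSF2oe control, a log2 fold change of 2.43 ± 0.39. With TGF-β it measured 19.3 and 19.6 CPM in Mock and 11.9 and 14.2 CPM in HSF2oe, a log2 fold change of -0.58 ± 0.15. The log2 difference of 3.01 between these effects had an unadjusted p of 5.46e-06 and an adjusted p of 0.0873 in edgeR's quasi-likelihood test, so it did not pass after adjustment. Of the 1937 genes called without TGF-β it was the 1 that passed in opposite directions in the 2 contexts.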

How the results depend on the processing

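Of the 194 called genes picked by the naming rule or for their role, 106 kept their call under every alternative; 84 lost it without HSF2oe control 1, 74 without Mock control 2, 26 without Mock control 1, 19 without HSF2oe control 2 and 4 under library totals. The untreated count of 1937 ranged from 368 to 1993 when 1 library was left out, the TGF-β count of 3449 from 1509 to 3331, and the lone library was then assumed to vary like the other groups. Other scaling, filters, thinning, limma and DESeq2 gave 1740 to 2441 untreated calls. A fit on only the 4 untreated libraries gave 2276 calls, 992 higher and 1284 lower. The 194 genes were picked for small p-values, large changes or their role, so the share that kept its call does not describe all 1937 calls.

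With a replicate block the counts were 3614 without TGF-β, 4900 with TGF-β and 78 for the difference; the block within the 4 untreated libraries, chosen after seeing the data, gave 3507. Deviations of same-numbered libraries correlated at 0.213 to 0.587 between groups, but with 2 numbers and no label saying what a number marks, they were taken to share only a number. The difference count of 0 became 83 without a low-count filter and 23 in DESeq2. Values that reversed were all uncalled: HSF1 to -0.00629 when thinned, and from -0.0165 (without Mock control 2) to 0.0653 when 1 library was left out; RPL8, a ribosomal protein gene, to 0.0579 under library totals, and from -0.107 to 0.0448 (without Mock control 1; 0.0274 without HSF2oe control 1); MT-ND4 from -0.0222 (without HSF2oe control 1) to 0.329; DNAJB1 to 0.0424 under library totals, and from -0.117 to 0.0242 (without HSF2oe control 1; 0.0119 without Mock control 1); and FN1 from -0.217 to 0.0266 (without Mock control 2). The cause was not tested.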
